A study of Rattus norvegicus with 14 samples.

Results

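Tg, Iyd, Dio1 and Dio2 are the genes examined here, 4 of the 16816 genes in a table of RNA-seq read counts from PCCL3 cells. They were chosen by name, as genes for the making of thyroid hormone and for the removal of iodine from it, with earlier results of these data known. Each of the 4 has a row in the table. PCCL3 is a rat thyroid follicular cell line. Of the 2 derived lines compared, one carries a Myc-tagged form of PPFP, the human fusion of PAX8 and PPARG, as a permanent transgene (PPFP cells). The other carries only the vector without an insert (EV cells). Each line received 1 µM pioglitazone, a PPARG agonist, or its DMSO vehicle for 16 hours before harvest. The resulting 4 groups hold 3 libraries each, from 3 independent experiments, and all cells were grown in medium with serum, thyrotropin (TSH), insulin, transferrin and hydrocortisone. PPFP cells and EV cells are 1 line each, so an effect of PPFP cannot be told apart from another difference between these lines.

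Thyroid hormone is built on thyroglobulin, a very large protein that follicular cells secrete into the follicle lumen. Iodide enters the cell through the sodium/iodide symporter, is oxidised at the apical membrane with hydrogen peroxide from the dual oxidases, and is attached to tyrosines of thyroglobulin, which are then coupled in pairs. Thyroglobulin is later taken back and digested, which releases the hormones together with iodotyrosines that were never coupled. Iodotyrosine deiodinase, the product of Iyd, strips the iodine from those leftovers so that it can be used again. The deiodinases Dio1 and Dio2 are selenoproteins that convert the prohormone T4 to the active hormone T3, and Dio1 also breaks hormone down. PAX8, the first part of the fusion, is a transcription factor for several of these thyroid genes.

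The 12 libraries held between 23724703 and 35240176 counts, and their group ranges overlapped in all 4 groups. At this depth Tg had 194003 to 393060 counts and Dio1 had 2854 to 11205 counts per library, while Iyd had 7 to 122 counts and Dio2 had at most 1. Within PPFP cells with pioglitazone, replicates 2 and 3 were far closer to each other than any other pair, with a chi-square per degree of freedom of 1.698 against 17.8 to 112.9 elsewhere; this is still above counting noise, so they were kept as 2 libraries, and counting both as 1 was tried for each member. Pparg, the second part of the fusion, had a level of 1.23 to 1.81 CPM (the count as a share of the scaled library size) with vehicle in EV cells, and of 46.7 to 59.8 CPM with vehicle in PPFP cells; these counts do not separate the rat gene from the human fusion. Defining markers of the thyroid follicular cell were present in all groups, at levels that differed between them: Pax8 had means of 738 CPM in EV cells with vehicle and 545 CPM in PPFP cells with pioglitazone, and Nkx2-1 had means of 335 and 174 CPM in the same groups. In these groups Foxe1 had means of 877 and 106 CPM and Slc5a5 of 1130 and 177 CPM, while Tshr was higher in the latter, at 320 and 453 CPM. Tg is given below. As for Pparg, the Pax8 counts of PPFP cells do not separate the rat gene from the fusion. Markers of other cell types were also counted, and their part in the results below was not tested. Among C cell markers, Calca and Calcb were at 0 in all 12 libraries and Chga had at most 1 count, while Ret had means of 6.97 and 7.71 CPM in EV cells with vehicle and with pioglitazone and 0.634 and 0.219 CPM in PPFP cells, lower in the latter at log2 fold changes of -3.43 (adjusted p = 2.17e-05) and -5.04 (adjusted p = 6.72e-05), the direction of Iyd and Dio1. Of 5 fibroblast markers Col3a1, Dcn and Lum were at 0 in all libraries, Col1a1 was not called, and Pdgfra was at 19 to 32.1 CPM and higher in PPFP cells with pioglitazone (0.47, adjusted p = 0.0143). The endothelial and leukocyte lists summed to at most 1.48 CPM per library; Vwf was higher in PPFP cells with vehicle (1.17, adjusted p = 0.0382), and Cd68 with vehicle (0.86, adjusted p = 0.048) and pioglitazone (1.18, adjusted p = 0.0156). The adipocyte list (Adipoq, Fabp4, Plin1, Lep, Cidec) summed per library to 0.646 to 3.11 CPM in the EV groups, to 18.5 to 19.3 CPM in vehicle-treated PPFP cells and to 53.3 to 73.5 CPM in pioglitazone-treated PPFP cells. Plin1 and Cidec carried most of the rise, with means of 6.39 and 7.99 CPM in PPFP cells with vehicle and 40.8 and 22 CPM with pioglitazone; Adipoq was higher in PPFP cells with vehicle (1.09, adjusted p = 0.0265) but fell with pioglitazone in PPFP cells (-0.91, adjusted p = 0.0241) and was not called between the lines with pioglitazone (0.36, adjusted p = 0.562), Fabp4 had at most 5 counts and Lep had 0. In these bulk samples, fewer cells that express a gene and less of its RNA per cell cannot be told apart.

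At an adjusted p under 0.05 in edgeR's quasi-likelihood test, Iyd and Dio1 were lower in PPFP cells than in EV cells under both treatments, and Tg, Iyd and Dio1 all fell with pioglitazone in PPFP cells. The counts of members called were read against the share of all genes called in the same comparison. Between the lines with vehicle, 2 of the 3 members tested were lower at an adjusted p under 0.05 and 1 of them, Iyd, also passed the study's further limit of a fold change above 2; of 10264 genes tested, 45.2% were called in either direction, 23.1% were lower and 7.31% were lower with a fold above 2. With pioglitazone, 2 of 3 were lower and both passed the fold limit, against 52.7% of 10291 genes called, 26.4% lower and 10.4% lower with a fold above 2. For the pioglitazone response of PPFP cells, 3 of 3 were lower and 1, Iyd, passed the fold limit, against 14.8% of 10064 genes called, 7.13% lower and 1.31% lower with a fold above 2. For the pioglitazone response of EV cells 0 of 3 were called, against 0 of 10146 genes (0%) in the same test, and DESeq2 and edgeR's exact test also called 0. Only 16 genes had an unadjusted p under 0.05, fewer than this threshold would pass with no response at all. The test leaves out the replicate number, although same-numbered EV libraries deviated together (r = 0.532, 0.729 and 0.773), so it can miss small responses. With the replicate number as a block 1 gene was called in EV cells. Since Dio2 was not tested, none of these counts covers all 4 members. The comparisons of PPFP cells share libraries with one another, so their values for a member are given side by side and not as separate evidence.

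**Figure D1:**
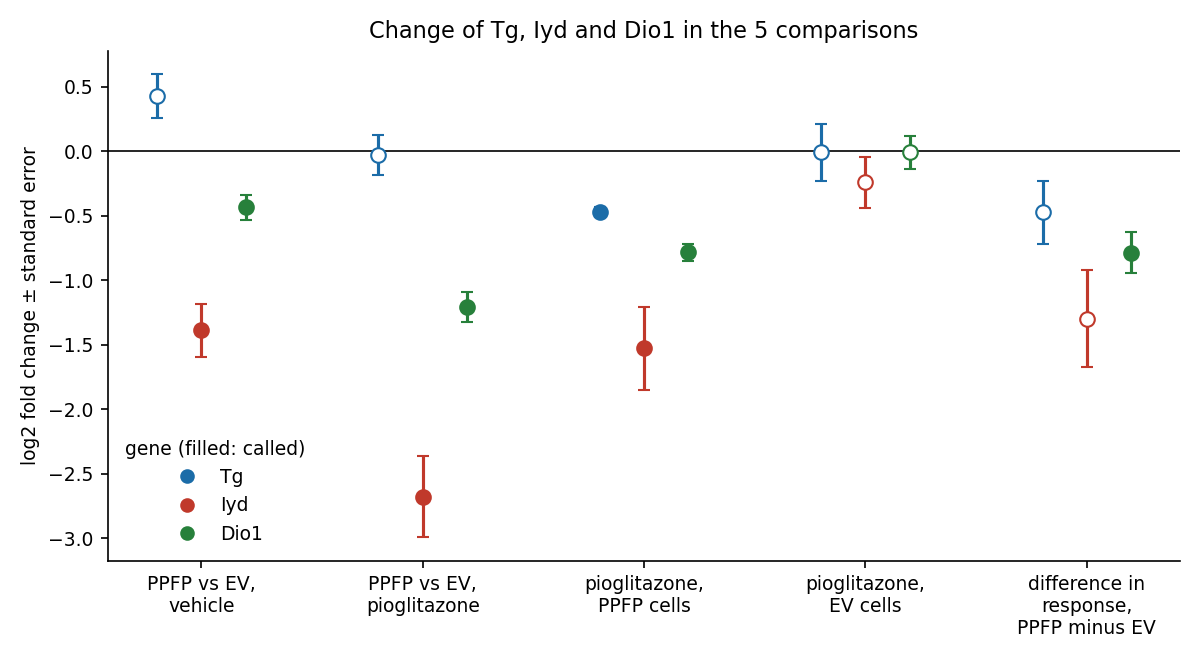
Log2 fold change of Tg, Iyd and Dio1 (y axis, with the standard error as a bar) in the 4 pairwise comparisons and in the difference between the pioglitazone responses of PPFP cells and EV cells (x axis). Filled points have an adjusted p under 0.05 in edgeR's quasi-likelihood test; all 3 genes are filled below 0 for pioglitazone in PPFP cells and open, between -0.24 and 0, for pioglitazone in EV cells.

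Tg, which encodes thyroglobulin, was higher in every PPFP library than in every EV library with vehicle, and it fell with pioglitazone in PPFP cells, to levels within the EV range. In EV cells with vehicle its level was 9944, 9852 and 6647 CPM in replicates 1, 2 and 3 (8814 ± 1878, SD, n = 3), where CPM is scaled by the trimmed mean of M values (TMM). In EV cells with pioglitazone it was 10610, 8345 and 7376 CPM (8778 ± 1662, SD, n = 3). The EV groups overlapped, and replicate 3 was the lowest library of each. In PPFP cells with vehicle the level was 11760, 12010 and 11380 CPM (11720 ± 320.3, SD, n = 3). In PPFP cells with pioglitazone it was 8317, 8436 and 8556 CPM (8436 ± 119.3, SD, n = 3). The 3 PPFP libraries with vehicle stood above the 9 others, and the 3 with pioglitazone fell among the EV libraries. The order thus has PPFP cells with vehicle at the top, and the other 3 groups, at means of 8814, 8778 and 8436 CPM, are neighbours whose libraries overlap.

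The log2 fold change of Tg between PPFP cells and EV cells with vehicle was 0.43 (SE 0.17), or 1.35-fold, and missed the threshold with an adjusted p of 0.0745 in edgeR's quasi-likelihood test. The value turned on 1 EV library: without replicate 3 of EV cells with vehicle it was 0.25, with an adjusted p of 0.0388. It was also called by DESeq2 (0.43, adjusted p = 0.0334) and by edgeR's exact test (0.43, adjusted p = 0.0311), and its adjusted p ranged from 0.0311 to 0.141 over 8 alternatives. With pioglitazone in both lines the log2 fold change was -0.030 (SE 0.16, adjusted p = 0.885), with overlap between the groups, and -0.0561 (adjusted p = 0.84) with the close pair counted as 1. Its sign turned on 1 library: it was 0.119 without EV-with-pioglitazone replicate 1, in a range of -0.172 to 0.119 over the 6 fits that left out 1 library. Within PPFP cells pioglitazone lowered Tg by 0.47 on the log2 scale; the log2 fold change was -0.47 (SE 0.0375, adjusted p = 0.00092), a 1.39-fold fall seen in 3 of 3 replicates with no overlap. That fall was kept in all 6 fits that each left out 1 library, at -0.50 to -0.47, and was lost when all 12 libraries shared 1 estimate of the spread (-0.48, adjusted p = 0.105); with PPFP-with-pioglitazone replicates 2 and 3 counted as 1 library it was -0.48 (adjusted p = 0.00921). In EV cells the log2 fold change with pioglitazone was -0.0093 (SE 0.22, adjusted p = 1), and the groups overlapped.

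**Figure D2:**
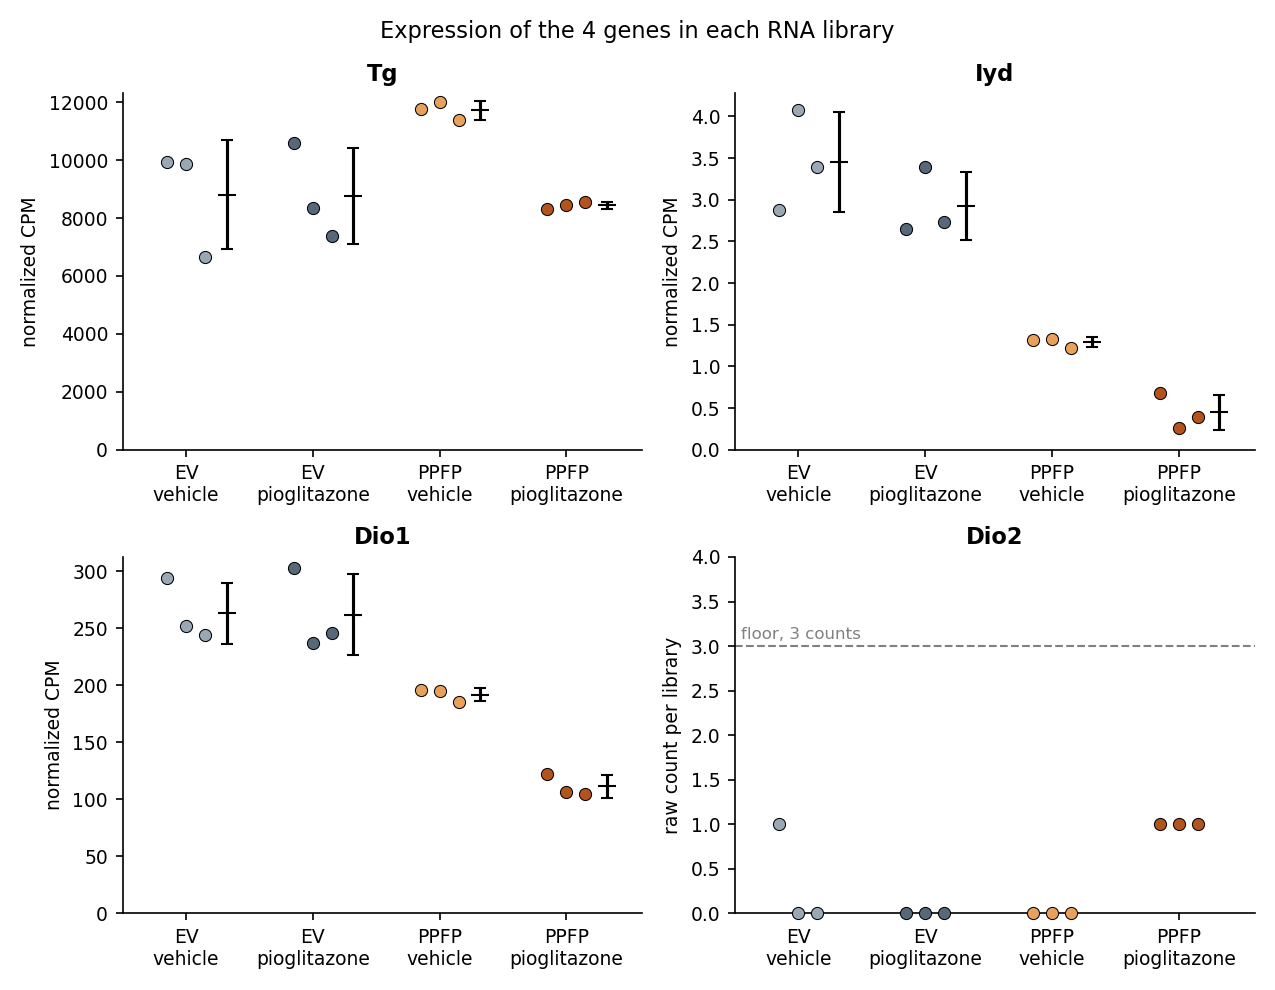
Level of Tg, Iyd and Dio1 in TMM-scaled CPM (y axis, linear, from 0) and raw counts of Dio2 (y axis) in the 12 libraries, by group (x axis). Points are replicates 1, 2 and 3 from left to right, the horizontal mark with its bar is the mean ± SD (n = 3), and the dashed line is the floor of 3 counts; Iyd and Dio1 are lower in every PPFP library than in every EV library.

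Iyd, whose product recovers iodide from uncoupled iodotyrosines, was the member with the largest fold difference between the lines, and it fell further in PPFP cells with pioglitazone. In EV cells with vehicle its level was 2.879, 4.083 and 3.392 CPM (3.451 ± 0.6043, SD, n = 3), from 86, 122 and 99 counts. In EV cells with pioglitazone it was 2.646, 3.389 and 2.727 CPM (2.921 ± 0.4076, SD, n = 3), from 98, 106 and 76 counts. The EV groups overlapped. In PPFP cells with vehicle it was 1.321, 1.331 and 1.224 CPM (1.292 ± 0.05884, SD, n = 3), from 36, 36 and 29 counts. In PPFP cells with pioglitazone it was 0.6803, 0.2611 and 0.3975 CPM (0.4463 ± 0.2138, SD, n = 3), from 18, 7 and 12 counts. The 4 means thus ran EV with vehicle, EV with pioglitazone, PPFP with vehicle and PPFP with pioglitazone from high to low, and the last 3 of these did not overlap with one another. The mean in PPFP cells was 37.43% of that in EV cells with vehicle and 15.28% of it with pioglitazone.

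Between the lines with vehicle, Iyd was 2.62-fold lower in PPFP cells, at a log2 fold change of -1.39 (SE 0.21, adjusted p = 0.00124), with every PPFP library below every EV library. With pioglitazone it was 6.4-fold lower, at -2.68 (SE 0.32, adjusted p = 0.000396), again with no overlap between the groups. Both differences passed the fold limit of 2, and both were called in every fit that left out 1 library, at -1.50 to -1.25 with vehicle and -3.08 to -2.44 with pioglitazone; with PPFP-with-pioglitazone replicates 2 and 3 counted as 1 library the latter was -2.61 (adjusted p = 0.00192). Within PPFP cells pioglitazone lowered Iyd 2.89-fold, with a log2 fold change of -1.53 (SE 0.32, adjusted p = 0.0246), lower in 3 of 3 replicates. The treated libraries held 7 to 18 counts, and the call was kept by DESeq2 (adjusted p = 0.00296), edgeR's exact test (0.000267), the fit of all 12 libraries (0.00664) and the replicate block (8.16e-05). It was lost without PPFP-with-vehicle replicate 2 (-1.52, adjusted p = 0.0872) or replicate 3 (-1.56, adjusted p = 0.0877), without PPFP-with-pioglitazone replicate 2 (-1.27, adjusted p = 0.0792) or replicate 3 (-1.47, adjusted p = 0.102), and with the latter pair counted as 1 library (-1.44, adjusted p = 0.0784). In EV cells the log2 fold change with pioglitazone was -0.24 (SE 0.20, adjusted p = 1); all 3 replicates were lower, at log2 CPM differences of -0.12 to -0.32, with overlap between the groups.

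Dio1, the deiodinase that both activates and clears thyroid hormone, was lower in PPFP cells than in EV cells under both treatments and fell with pioglitazone in PPFP cells. In EV cells with vehicle its level was 293.9, 251.9 and 243.8 CPM (263.2 ± 26.91, SD, n = 3). In EV cells with pioglitazone it was 302.6, 237.5 and 246.3 CPM (262.1 ± 35.32, SD, n = 3). These groups overlapped, with replicate 1 the highest in each. In PPFP cells with vehicle it was 195.5, 194.6 and 185.1 CPM (191.8 ± 5.758, SD, n = 3). In PPFP cells with pioglitazone it was 122.5, 106.5 and 104.7 CPM (111.2 ± 9.797, SD, n = 3). All 6 PPFP libraries lay below all 6 EV libraries, and the PPFP libraries with pioglitazone lay below those with vehicle. The mean in PPFP cells was 72.85% of that in EV cells with vehicle and 42.43% of it with pioglitazone.

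The log2 fold change of Dio1 between the lines was -0.44 (SE 0.099, adjusted p = 0.00901) with vehicle, or 1.35-fold lower, and -1.21 (SE 0.12, adjusted p = 0.000167) with pioglitazone, or 2.31-fold lower, which alone of the pair passed the fold limit of 2. The pioglitazone response of PPFP cells was -0.78 (SE 0.0655, adjusted p = 0.00103), a 1.72-fold fall. In each of these 3 comparisons the groups did not overlap, and each difference was called in every fit that left out 1 library, with the highest adjusted p, 0.0468, in the comparison with vehicle. With PPFP-with-pioglitazone replicates 2 and 3 counted as 1 library the difference with pioglitazone was -1.20 (adjusted p = 0.00123) and the response of PPFP cells -0.75 (adjusted p = 0.00996). In EV cells the log2 fold change with pioglitazone was -0.0089 (SE 0.13, adjusted p = 1).

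Iyd and Dio1 were lower in PPFP cells in both comparisons between the lines, so the 250 bases before their RefSeq transcription starts are printed here for the region in which the 2 genes could share a sequence. Both are from the GRCr8 build, read 5′ to 3′ on the gene's own strand: Iyd at chr1:42409888-42410137 on the plus strand and Dio1 at chr5:127319785-127320034 on the minus strand. RefSeq promoters of 3 of the 4 members were at hand (Iyd, Dio1 and Dio2). Capitals mark matches to the motifs searched.
Iyd: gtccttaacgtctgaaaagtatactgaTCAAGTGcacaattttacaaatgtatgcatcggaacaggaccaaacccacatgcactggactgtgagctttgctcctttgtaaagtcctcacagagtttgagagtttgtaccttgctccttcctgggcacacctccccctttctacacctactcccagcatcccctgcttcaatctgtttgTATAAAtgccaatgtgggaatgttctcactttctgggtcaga
Dio1: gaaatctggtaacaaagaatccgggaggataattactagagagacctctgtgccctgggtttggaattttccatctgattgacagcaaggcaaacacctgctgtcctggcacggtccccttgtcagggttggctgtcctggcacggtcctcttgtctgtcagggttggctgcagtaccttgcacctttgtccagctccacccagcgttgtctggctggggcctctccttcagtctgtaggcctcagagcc
Motifs were searched by their letters on both strands: the nuclear receptor half-site AGGTCA, its direct repeat AGGTCANAGGTCA (which contains the half-site), the NK2 homeobox consensus TNAAGTG, the paired-domain core GCGTGA and the TATA box TATAAA. Among 33469 promoters of this length, 14.1%, 0.0508%, 9.89%, 5.53% and 12.9% hold each in turn. The Iyd stretch holds a TNAAGTG match at -223 and a TATAAA match at -42, counted from the start to the first base of the motif. In the Dio1 stretch none of these letters occurs, so the 2 stretches share none of the motifs searched. A match, or the lack of one, is a description of these letters only. Each motif is absent from most promoters, so the lack of a shared match was likely in advance and does not bear on a shared binding site.

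Dio2, the deiodinase that makes T3 from T4 inside cells, was at or below the floor of 3 counts in all 12 libraries. It had 1 count in EV cells with vehicle (replicate 1) and 1 count in each of the 3 PPFP libraries with pioglitazone, and 0 counts in the other 8. A count of 0 allows up to 3 counts, which is 0.08513 to 0.1265 CPM at the depth of these libraries. All groups are therefore under the floor and no fold is given. Dio2 did not pass the filter on low counts and was not tested with the others; in fits with no filter its adjusted p was 0.454 between the lines with vehicle, 0.104 with pioglitazone, 0.232 within PPFP cells for pioglitazone against vehicle and 1 for the same within EV cells. Any difference in Dio2 was not detectable at this depth. Dio3, the deiodinase that only inactivates hormone, had 0 counts in every library.

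Whether the members responded differently to pioglitazone in the 2 lines was tested as an interaction over all 12 libraries. The response of Dio1 was lower in PPFP cells than in EV cells by a log2 difference of -0.79 (SE 0.16, adjusted p = 0.0256). That of Iyd had a difference of -1.30 (SE 0.38, adjusted p = 0.108) and that of Tg had a difference of -0.47 (SE 0.24, adjusted p = 0.464), so 1 of 3 members was called against 2.64% of 10482 genes. The difference of Tg ranged from -0.597 to -0.294 over the 12 fits that left out 1 library; it was -0.294 without EV-with-vehicle replicate 3 and -0.306 without EV-with-pioglitazone replicate 1. Same-numbered libraries within a line deviate together, but in PPFP cells replicates 2 and 3 were not set apart by number. There the deviations of replicate 3 with pioglitazone had r = 0.536 with vehicle replicate 2 and 0.433 with vehicle replicate 3. With the replicate number as a block within each line all 3 members were called: Tg at -0.48 (SE 0.0838, adjusted p = 0.000597), Iyd at -1.30 (SE 0.31, adjusted p = 0.00503) and Dio1 at -0.79 (adjusted p = 2.79e-07), against 34.3% of genes called in that fit. Without the block the call of Dio1 was lost on leaving out any one of 7 libraries: EV with vehicle replicate 2 or 3, EV with pioglitazone replicate 1, PPFP with vehicle replicate 2 or 3, or PPFP with pioglitazone replicate 2 or 3. Its difference then lay between -0.89 and -0.66 with adjusted p-values of 0.0229 to 0.0806 over all 12 such fits, and it was -0.75 (adjusted p = 0.0798) with PPFP-with-pioglitazone replicates 2 and 3 counted as 1 library. Iyd was called without PPFP-with-pioglitazone replicate 1 (-1.71, adjusted p = 0.0367) and by DESeq2 (-1.30, adjusted p = 0.0304).

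**Figure D3:**
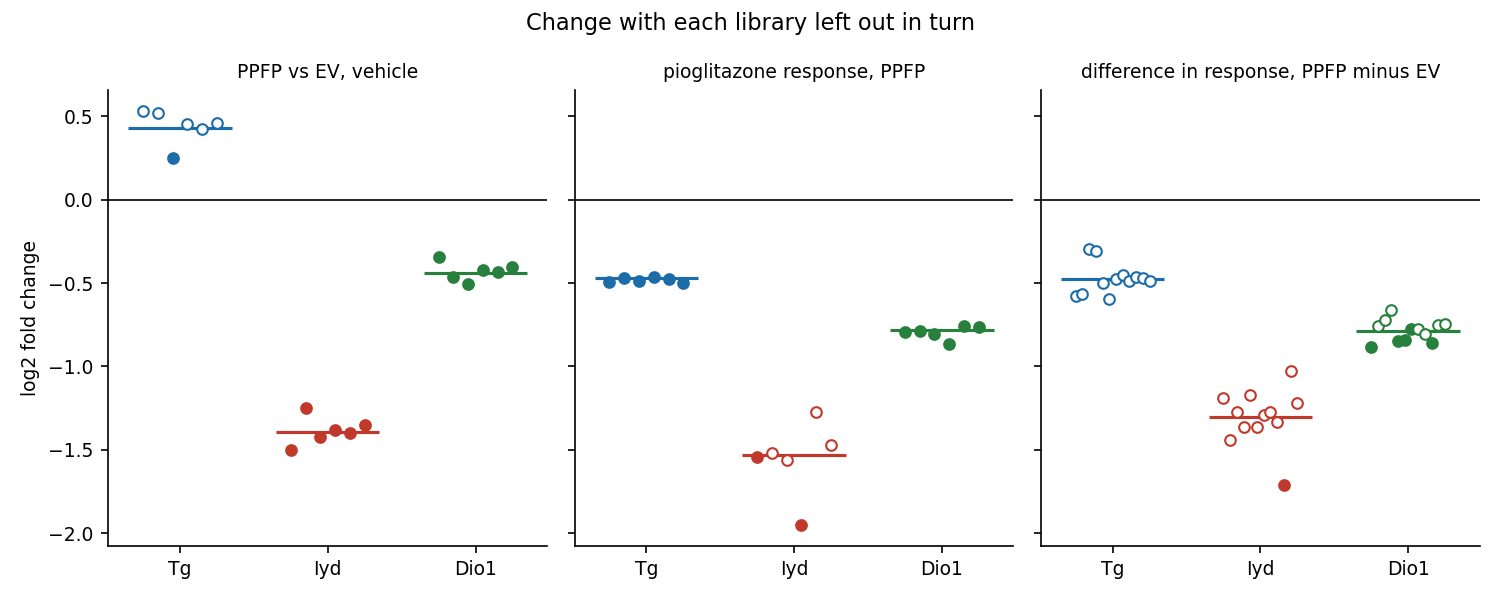
Log2 fold change (y axis) of Tg, Iyd and Dio1 (x axis) when each library is left out in turn, for PPFP cells versus EV cells with vehicle, pioglitazone against vehicle within PPFP cells, and the difference in response between the lines. Each point is 1 fit, the horizontal line is the fit with all libraries, and filled points have an adjusted p under 0.05; no point crosses 0, and in the middle panel 4 of the 6 Iyd points are open.

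The members were set beside 52 other genes of the pathway in 7 lists, of which 45 have a row in the table. With vehicle, 39 of these were tested between the lines: 11 were higher in PPFP cells, 10 were lower and 18 were not called, beside 45.2% of all genes called, with a median log2 fold change of 0.13 against 0.00164 over all genes. With pioglitazone 13 were higher, 13 lower and 13 not called, beside 52.7% of all genes called, with a median of 0.0722 against 0.0121. With pioglitazone against vehicle within PPFP cells 6 of 38 rose, 8 fell and 24 were not called, beside 14.8% of all genes called, with a median of -0.0881 against 0.0120; with the replicate block 11 rose, 18 fell and 9 were not called, beside 51.6% of all genes called in that fit. In EV cells 0 of 37 were called with or without the block. Calls in both directions were thus found beside the members in each comparison that had calls.

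Among the other enzymes and transporters of hormone synthesis, 4 of 8 genes were higher in PPFP cells with vehicle, 3 were lower and 1 was not called, beside 45.2% of all genes called. Slc5a5, the sodium/iodide symporter, had mean levels of 1130, 1090, 336 and 177 CPM in EV cells with vehicle, EV cells with pioglitazone, PPFP cells with vehicle and PPFP cells with pioglitazone, and was lower in PPFP cells with vehicle by a log2 fold change of -1.73 (adjusted p = 1.43e-05). Ano1, an apical chloride channel that also passes iodide, had means of 203, 192, 114 and 72.7 CPM in the same order, and was lower with vehicle at -0.82 (adjusted p = 0.000292). Slc26a7, an anion exchanger that carries iodide, had 305 to 617 counts in EV libraries with vehicle and 3 to 5 counts in PPFP libraries with vehicle, a log2 fold change of -6.41 (adjusted p = 2.4e-05). These 3 were lower in PPFP cells with pioglitazone as well, and Slc5a5 (-0.92) and Ano1 (-0.64) also fell with pioglitazone in PPFP cells, as Iyd, Dio1 and Tg did. Duox2, a dual oxidase that makes hydrogen peroxide, had means of 19.3, 18.8, 87.9 and 179 CPM, and its maturation factor Duoxa2 had means of 18.6, 17.6, 80.2 and 172 CPM. Both were higher in PPFP cells with vehicle (2.21 and 2.13) and rose with pioglitazone in PPFP cells (1.02 and 1.10). Duoxa1, the partner factor, was higher with vehicle (0.76) and rose with pioglitazone (0.80), while Duox1 was not called with vehicle (0.20, adjusted p = 0.237); the call of Duoxa1 with vehicle was lost without EV-with-vehicle replicate 1 (adjusted p = 0.0613). Slc26a4, the apical anion exchanger pendrin, was higher in PPFP cells with vehicle (3.32) from 2 to 7 counts in EV libraries and 30 to 46 in PPFP libraries. In the test of the difference between the lines' responses, Slc5a5 (-0.87, adjusted p = 0.0155), Ano1 (-0.57, adjusted p = 0.0244), Duox2 (1.06, adjusted p = 0.0082) and Duoxa2 (1.16, adjusted p = 0.00224) were the 4 pathway genes called without the replicate block, beside Dio1 among the members and 2.64% of all genes; with single libraries left out those of Slc5a5 and Ano1 were lost (highest adjusted p of 0.0734 and 0.0778), that of Ano1 also with the close pair of replicates counted as 1. With the replicate block 26 of 39 pathway genes were called in this test, 11 higher and 15 lower, beside 34.3% of all genes.

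Of the transcription factors and the TSH receptor that govern thyroid genes, 3 of 5 tested were lower in PPFP cells with vehicle, 1 was higher and 1 was not called, beside 45.2% of all genes called and 23.1% lower. Foxe1 (-2.72, adjusted p = 4.01e-06), Hhex (-0.99, adjusted p = 0.000285) and Nkx2-1 (-0.58, adjusted p = 0.00263), all developmental thyroid factors, were lower. Tshr, the receptor for TSH, was higher (0.66, adjusted p = 0.00136), and the Pax8 count, which may hold reads of the fusion in PPFP cells, had a log2 fold change of -0.0814 (adjusted p = 0.469). With pioglitazone in PPFP cells the counts of Pax8 (-0.33, adjusted p = 0.00483) and Nkx2-1 (-0.34, adjusted p = 0.0391) fell, beside 14.8% of all genes called. The call of Nkx2-1 was lost on leaving out single libraries or counting PPFP-with-pioglitazone replicates 2 and 3 as 1 (highest adjusted p of 0.135). With the replicate block all 5 of this list fell in PPFP cells, in a fit that called 51.6% of all genes.

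Of 8 genes for folding thyroglobulin in the endoplasmic reticulum, only Hsp90b1, an endoplasmic reticulum chaperone, was called with vehicle, beside 45.2% of all genes; it was higher in PPFP cells (1.29, adjusted p = 0.00102). With pioglitazone Hsp90b1 was higher (0.99) and Hspa5, the chaperone BiP, was lower (-0.61, adjusted p = 0.0255), and 0 of 8 were called for pioglitazone against vehicle within PPFP cells, where Tg fell, beside 14.8% of all genes called; with the replicate block 1 rose and 5 fell there, beside 51.6% of all genes called. The call of Hspa5 was lost on leaving out single libraries or counting PPFP-with-pioglitazone replicates 2 and 3 as 1 (highest adjusted p of 0.0842). Of 7 tested genes for taking thyroglobulin up and digesting it, 3 were higher and 3 lower with vehicle, beside 45.2% of all genes called. Lrp2, the endocytic receptor megalin that binds thyroglobulin, was lower (-1.06, adjusted p = 0.00026), as were its chaperone Lrpap1 (-0.67) and the protease Ctsd (-0.48). The cathepsins Ctss (3.17, from 3 to 8 counts in EV libraries and 42 to 60 in PPFP libraries), Ctsl1 (1.18) and Ctsb (0.37) were higher. With pioglitazone in PPFP cells, Lrp2 (-0.53), Ctss (-1.06) and Ctsb (-0.26) fell and Lrpap1 rose (0.22). On leaving out single libraries the call was lost for Ctsb with vehicle (highest adjusted p of 0.0895 over the alternatives) and for Lrp2 (0.11), Ctss (0.0847), Ctsb (0.236) and Lrpap1 (0.377) within PPFP cells, the last 4 also with PPFP-with-pioglitazone replicates 2 and 3 counted as 1. The call of Ctsb with vehicle was also lost with scaling by library size alone, and within PPFP cells those of Ctsb, Ctss and Lrpap1 were also lost with all 12 libraries in one fit and those of Ctsb and Lrpap1 in edgeR's exact test.

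Downstream of the deiodinases, 3 of 9 genes for hormone transport, receptors and inactivation were tested, and each was called between the lines with vehicle, beside 45.2% of all genes. Thra, a thyroid hormone receptor, was lower (-0.48, adjusted p = 0.0198). Thrb, the other thyroid hormone receptor, was higher (1.49, adjusted p = 7.24e-05), as was Sult1a1, a sulfotransferase that inactivates hormone (1.43, adjusted p = 0.0226). With pioglitazone in PPFP cells Thra fell (-0.58) while Thrb (0.55) and Sult1a1 (0.72) rose. The calls of Thra and Sult1a1 with vehicle were lost without EV-with-vehicle replicate 1 or without PPFP-with-vehicle replicate 3 (highest adjusted p of 0.0722 and 0.0774 over the alternatives), and those within PPFP cells were also lost on leaving out single libraries or counting PPFP-with-pioglitazone replicates 2 and 3 as 1, that of Sult1a1 also with all 12 libraries in one fit (0.135 and 0.359). Dio1 needs the machinery that inserts selenocysteine, and 0 of 5 genes of that list were called with vehicle or for pioglitazone within PPFP cells (3 rose there with the replicate block), beside 45.2% and 14.8% of all genes called (51.6% with the block). Eefsec (0.64, adjusted p = 0.00228), the selenocysteine elongation factor, and Sephs1 (0.40, adjusted p = 0.0235) were higher in PPFP cells with pioglitazone. Of 3 genes for turnover of the Dio2 protein, 1 was called, Usp20, a deubiquitinase (-0.24, adjusted p = 0.0266), in PPFP cells versus EV cells with pioglitazone, a comparison that called 52.7% of all genes. The calls of Sephs1 and Usp20 were lost on leaving out single libraries and with the replicate block, that of Sephs1 also with library size alone and that of Usp20 also in edgeR's exact test and with the close pair counted as 1 (highest adjusted p of 0.0937 and 0.134).

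**Figure D4:**
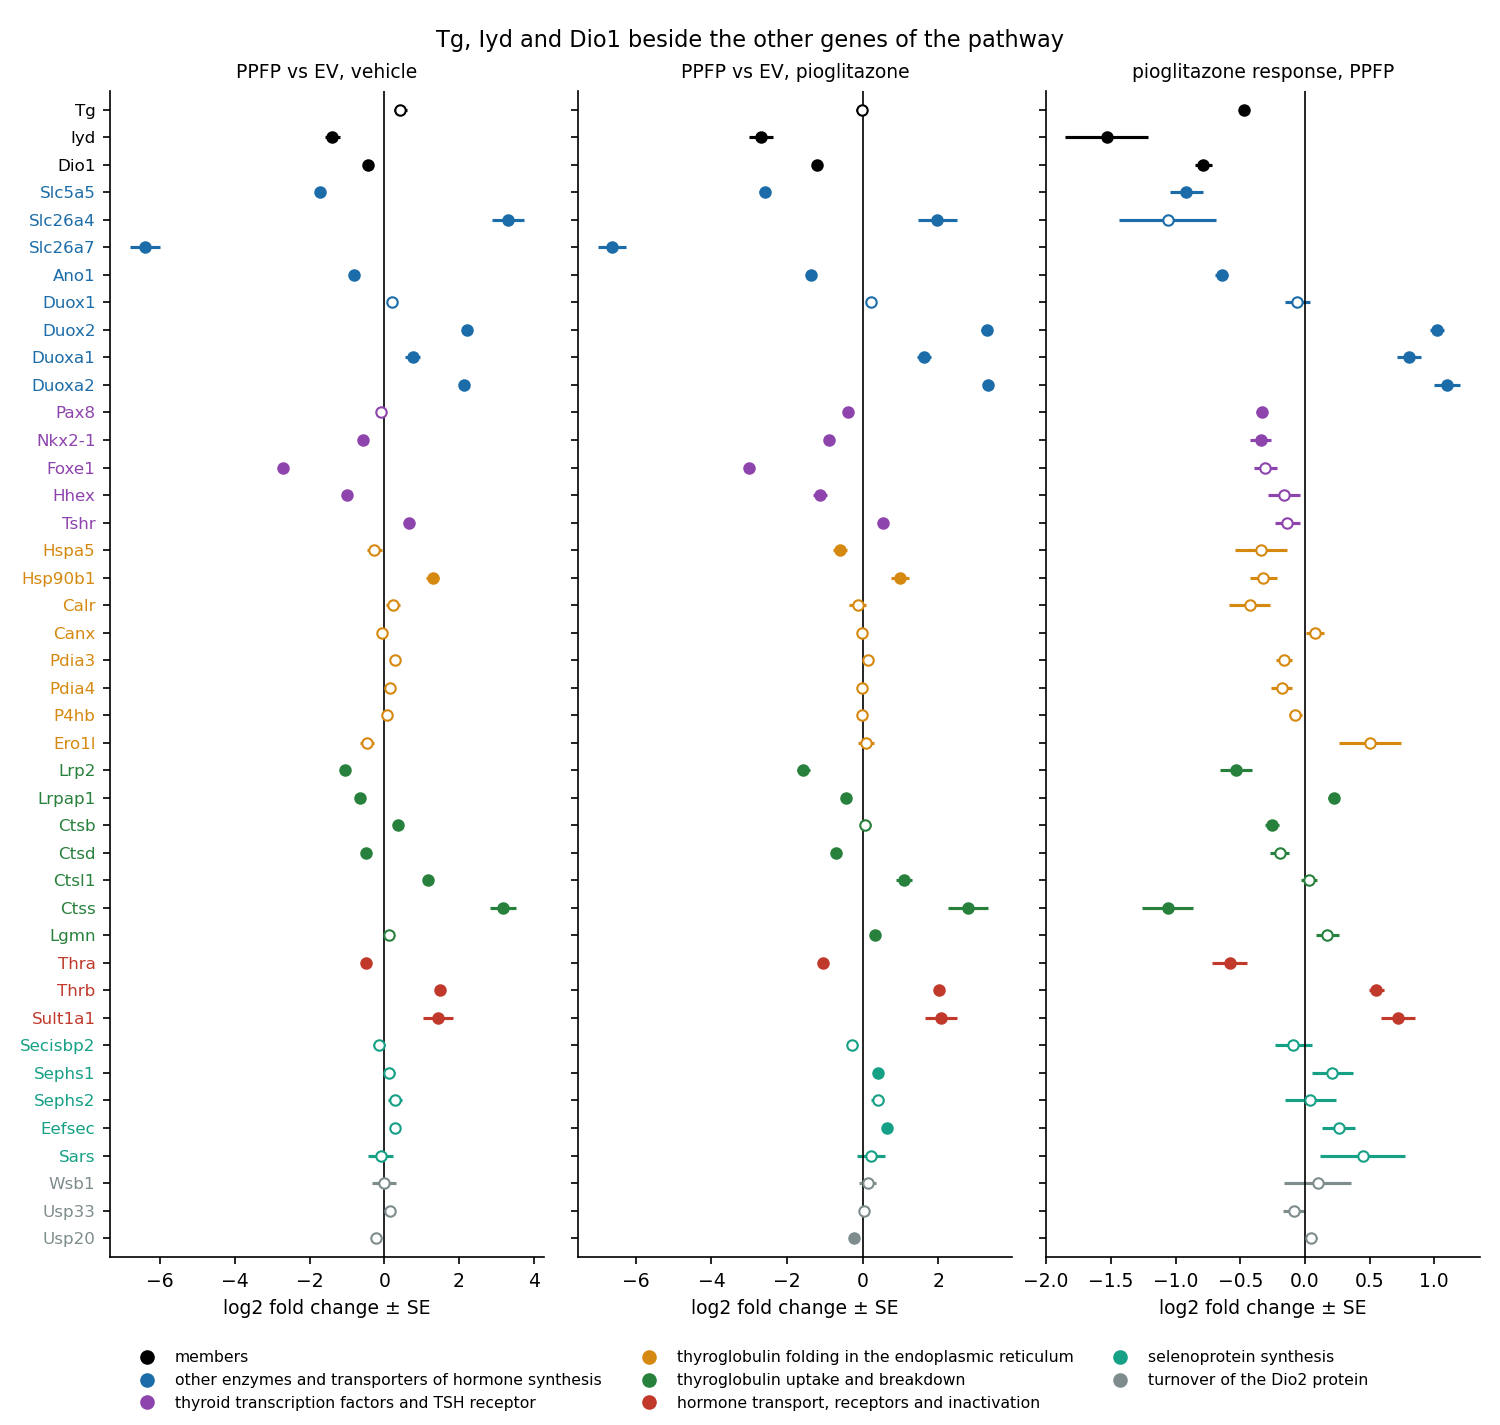
Log2 fold change with its standard error (x axis; the scale differs between panels) of Tg, Iyd and Dio1 and of the tested genes of the 7 pathway lists (y axis, coloured by list) for PPFP cells versus EV cells under each treatment, and pioglitazone against vehicle within PPFP cells. Filled points have an adjusted p under 0.05; Iyd and Dio1 lie on the same side of 0 as Slc5a5 and Ano1, and Duox2, Duoxa1 and Duoxa2 on the other.

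The genes whose log2 CPM was most like that of each member over the 12 libraries are given as a description. The libraries fall into 2 lines and share the processing, so a high correlation over all 12 can come from the difference between the lines. For Tg they were Csf1 (Pearson's r = 0.9526), RT1-Db1 (0.9405) and RT1-Ba (0.9381), a macrophage growth factor and a pair of MHC class II genes, and within each line, over 6 libraries, r was 0.95, 0.919 and 0.891 in EV cells and 0.991, 0.979 and 0.985 in PPFP cells. For Iyd they were Gas7 (0.9811), Ptpn20b (0.976) and Ano1 (0.9749), with r of 0.572, 0.45 and 0.893 within EV cells and 0.957, 0.937 and 0.924 within PPFP cells. For Dio1 they were Pdp1 (0.9891), Lrtm2 (0.987) and Scx (0.9799), with r of 0.959, 0.744 and 0.54 within EV cells and 0.978, 0.986 and 0.979 within PPFP cells. Between the members, r within PPFP cells was 0.894 for Tg and Iyd, 0.974 for Tg and Dio1 and 0.958 for Iyd and Dio1, over libraries that differ by treatment. Within EV cells it was -0.0869, 0.749 and -0.57 for the same pairs.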

How the data were processed

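RNA-seq counts of 12 libraries from PCCL3 cells were used. The authors aligned 50-base paired reads to rn4 with TopHat2 2.0.11 and deposited unnormalized whole-number counts per gene symbol from HTSeq 0.6.1p1 in its intersection-strict mode; RNA came from 3 independent experiments. Strand use in counting is not given in the sources used here, so reads of overlapping genes on opposite strands may not be separated. The lists of ChIP-seq peaks were not used here, because their positions are in rn4 and name no genes.

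edgeR 4.0.16 (R 4.3.3) was used for the counts: genes were filtered with filterByExpr (minimum count 10), scaled by TMM and tested with the quasi-likelihood test on the 6 libraries compared (12 for the interaction), with Benjamini-Hochberg adjustment over all genes tested and calls at an adjusted p under 0.05. Adjusted p-values are from this test where no other is given. CPM used TMM factors over 12 libraries, and a group with at most 3 counts in every library was taken as at the floor, which covers counting error only. Log2 fold changes are fitted values. Alternatives were DESeq2 1.42.0, edgeR's exact test, RLE factors, library size alone, other filters, 1 fit of all 12 libraries, the replicate number as a block and each library left out. Fits were also run on simulated counts drawn independently for each library, and the outcome is not reported here. Same-numbered libraries deviated together within PPFP cells (r = 0.744, 0.465 and 0.433) and within EV cells (0.532, 0.729 and 0.773), taken from the data and not from the labels. In PPFP cells replicates 2 and 3 were not set apart by number. There r was 0.536 for replicate 3 with pioglitazone and 2 with vehicle, and 0.351 for 2 with pioglitazone and 3 with vehicle. The remaining unlike-numbered pairs of PPFP cells had r of -0.64 to -0.494. Figures were drawn in Python 3.11.15.

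The members and the gene lists were chosen with earlier results of these data known. Genes named are the members, up to 3 called genes per list, comparison and direction with the largest change, the 3 genes most correlated with each member, and Pax8 and Pparg; Duox1, Dio3 and the marker genes were named in addition, after their values were seen. Promoter sequences are RefSeq, GRCr8. Some listed genes are not reported here.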

Additional observations from a re-analysis of the deposited data

Results flagged for a closer look

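The pioglitazone response of Dio1 differed between the lines in the test of the difference itself: it was lower in PPFP cells than in EV cells by a log2 difference of -0.787 (edgeR's quasi-likelihood test of the interaction, adjusted p = 0.0256). Dio1 fell in 3 of 3 replicates of PPFP cells, from 191.8 ± 5.758 to 111.2 ± 9.797 CPM (SD, n = 3), and was 263.2 ± 26.91 and 262.1 ± 35.32 CPM (SD, n = 3) in EV cells without and with pioglitazone, where 1 of 3 replicates was lower. The call was lost on leaving out any one of 7 of the 12 libraries (adjusted p of up to 0.0806) and with PPFP-with-pioglitazone replicates 2 and 3 counted as 1 library (-0.751, adjusted p = 0.0798), and was kept with the replicate block (adjusted p = 2.79e-07).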

How the results depend on the processing

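Over the 15 results of Tg, Iyd and Dio1, no alternative turned the direction of a called value; 112 values under other settings and 95 with 1 library left out kept their side of the threshold. Tg between the lines with vehicle (0.43) was called by DESeq2 (0.431, adjusted p = 0.0334) and by the exact test (0.428, adjusted p = 0.0311), and ran from 0.248 to 0.53 with 1 library left out, 0.248 being called. The fall of Tg with pioglitazone in PPFP cells was lost with all 12 libraries in 1 fit (-0.482, adjusted p = 0.105). That of Iyd was lost with PPFP-with-pioglitazone replicates 2 and 3 counted as 1 library (-1.44), an alternative chosen after seeing the data, and ran from -1.95 to -1.27 with 1 library left out (adjusted p of 0.0112 to 0.102). The difference in response of Iyd was called by DESeq2 (-1.30, adjusted p = 0.0304), with the replicate block within each line (-1.30) and without PPFP-with-pioglitazone replicate 1 (-1.71, adjusted p = 0.0367), in a range of -1.71 to -1.03. That of Tg was called with the replicate block (-0.483), and that of Dio1 was lost with the 2 close replicates counted as 1 (-0.751, adjusted p = 0.0798) and ran from -0.885 to -0.662. The cause was not tested. The replicate block changed no other call of a member. Between the lines, same-numbered libraries did not deviate together (r = -0.252, 0.317 and -0.322 with vehicle, -0.248, 0.237 and -0.38 with pioglitazone). Within PPFP cells not every library correlated best with its own number: replicate 3 with pioglitazone had r = 0.536 with vehicle replicate 2, above 0.433 with vehicle replicate 3. Genes called in the pioglitazone response of PPFP cells numbered 1486, against 5198 with the replicate block, 632 to 755 without 1 of PPFP-with-vehicle replicates 2 and 3 or PPFP-with-pioglitazone replicates 2 and 3, and 709 with the close pair counted as 1; in EV cells they numbered 0 and 1 with the block. For the difference in response they numbered 277, against 601 by DESeq2, 3594 with the block, 124 to 162 without 1 of 5 libraries, and 150 with the close pair counted as 1. Scaling by library size alone moved the median of all genes to -0.125 with pioglitazone between the lines, from 0.0121, and Tg there to -0.169; the mean of Tg in PPFP cells with pioglitazone became 8068 CPM. Iyd had no value where at least 10 counts were required in every library of a comparison with PPFP-with-pioglitazone libraries. Of the pathway genes called, 17 of 21 (vehicle), 20 of 26 (pioglitazone), 7 of 14 (response of PPFP cells) and 2 of 4 (difference in response) kept their call in all alternatives, and 0 turned direction. The peak alternatives were not run, since positions of the genes in rn4 were not used here. Depth limits Dio2, and Iyd in PPFP cells with pioglitazone.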
